A study of Mus musculus with 16 samples.

Results

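Feeding with cuprizone (CPZ) for 4 weeks was compared with no treatment in the corpus callosum of male C57BL/6 mice. The comparison rests on 7 of the 16 arrays of the study, namely the 4 titled as demyelinated after 4 weeks and the 3 titled as untreated, with every probe on them. CPZ was mixed into powdered chow, at 0.2% by the methods and at 0.2 to 0.4% by the sample labels. The untreated mice ate normal chow and were matched to the 4-week group in age and sex, and the methods give 7 to 8 weeks as the age of the mice used. Neither group carried a transgene or a deletion. The lesion area of the callosum was punched out, its total RNA was extracted, and 1 RNA sample was hybridised to each single-colour Agilent 4x44K array. The arrays stand for replicates under the numbers of their titles. The methods name 3 to 6 mice for each condition, and the labels do not tie an array to a mouse, so the p-values measure the spread between these samples.

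CPZ is a copper chelator that kills mature oligodendrocytes, the cells that wrap axons of this white matter tract in myelin, and leaves the axons largely in place. Microglia, the resident macrophages of the brain, then gather, take up myelin debris and change their gene expression from a surveying to a phagocytic state. Astrocytes become reactive in the same area. The RNA of a punched piece of callosum mixes all of these cells, so fewer cells of a type and less RNA per cell cannot be told apart in any value below.

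A level is the log2 signal of a probe minus the log2 of the 75th percentile of its array, so a level of 0 equals that percentile and a difference of 1 is a 2-fold change. Levels of different probes are not compared with each other. A gene was called when limma gave a Benjamini-Hochberg adjusted p under 0.05 and a change of at least 2-fold on at least 1 of its probes, in a fit that also held the 3 arrays of 2 weeks of CPZ. Elsewhere a gene is given by its brightest tested probe. For 3 arrays against 4, an exact two-sided permutation test of a single value cannot go below 0.057, so for genes that were not called the statement given is whether all CPZ arrays lay on the same side of all untreated arrays.

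The deposited sources did not place the arrays alike. Of the 16 columns of the processed table, 14 held the array of a scanner file recorded under another sample, and for 13 of these the other sample belonged to another group. The array of each sample was taken from the table column, and every value given here rests on that choice. With each scanner file under its recorded sample, limma called 0 genes, with 745 at an unadjusted p under 0.05, and 11 of the 39 probes called here and still tested kept their sign. The median log2 fold change was then 0.23 in place of 2.42 for disease-associated microglia genes and 0.40 in place of -2.28 for myelin membrane proteins. No label states which placement is right. The paper lists Mog and Cntn2 as lower and Timp1 and Lgals1 as higher in demyelination, the signs found here with the table columns. That listing comes from the same arrays, so it does not decide the placement. Stained sections in the paper, made apart from the arrays, showed more TIMP-1 and UFO (Axl) reactivity in the demyelinating callosum.

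The 7 arrays did not lie equally close to their groups. The share of probes well above background was 57.3, 66.8 and 70.9% on untreated arrays 1 to 3 and 66.2, 60.3, 59.2 and 64.6% on CPZ arrays 1 to 4. Over all probes tested, the deviation of untreated array 1 from its group mean correlated with those of CPZ arrays 2 and 3 (Pearson's r across probes 0.746 and 0.784) and ran opposite to those of CPZ arrays 1 and 4 (-0.809 and -0.843). Genes of the choroid plexus and ependyma, which lie in and line the ventricles beneath the callosum, followed the same division of the arrays. The summed linear level of the 13 such genes tested was 41.4, 20.4 and 10.6 on the untreated arrays and 3.98, 38.8, 84.1 and 18.4 on the CPZ arrays. Transthyretin (Ttr), the most typical product of the choroid plexus, stood at 2.00, -1.77 and 0.68 in the untreated group and at -2.15, 2.33, 4.19 and 1.17 in the CPZ group, so the groups overlapped fully. Folr1 (0.57 ± 1.04), Kl (1.14 ± 1.03) and Foxj1 (0.09 ± 0.81), given as log2 fold change ± SE, overlapped as well. The part of these cells in other results was not tested. Untreated array 2 shared a slide with CPZ array 3, and untreated array 3 shared a slide with CPZ array 1, which gives 2 within-slide differences for every gene.

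Of 20404 genes tested, 41 were called, which is 0.201%. In 21 of them (0.103%) the level rose with CPZ and in 20 (0.098%) it fell. All 4 CPZ arrays lay above all 3 untreated arrays for 1084 genes (5.31%) and below them for 905 genes (4.44%), and an unadjusted p under 0.05 was reached by 2389 genes (11.7%). The shares of 5.31 and 4.44% are the background for the list counts below. The median log2 fold change of all genes was -0.04. The number of called genes rested on single arrays. It was 0 without CPZ array 1, 3 or 4 or without array 3 of 2 weeks of CPZ, 4 and 1 without untreated arrays 2 and 3, and 21 without array 1 of 2 weeks of CPZ. Without untreated array 1 it was 51, of which 8 were higher and 43 lower, and 14 were among the 41. It rose to 94 without array 2 of 2 weeks of CPZ and to 165 without CPZ array 2. On all 45 called probes the sign was the same within each of the 2 slides as in the whole comparison. The named genes called are 19 higher and 16 lower, and 18 of these 35 are on none of the gene lists used here.

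**Figure D1:**
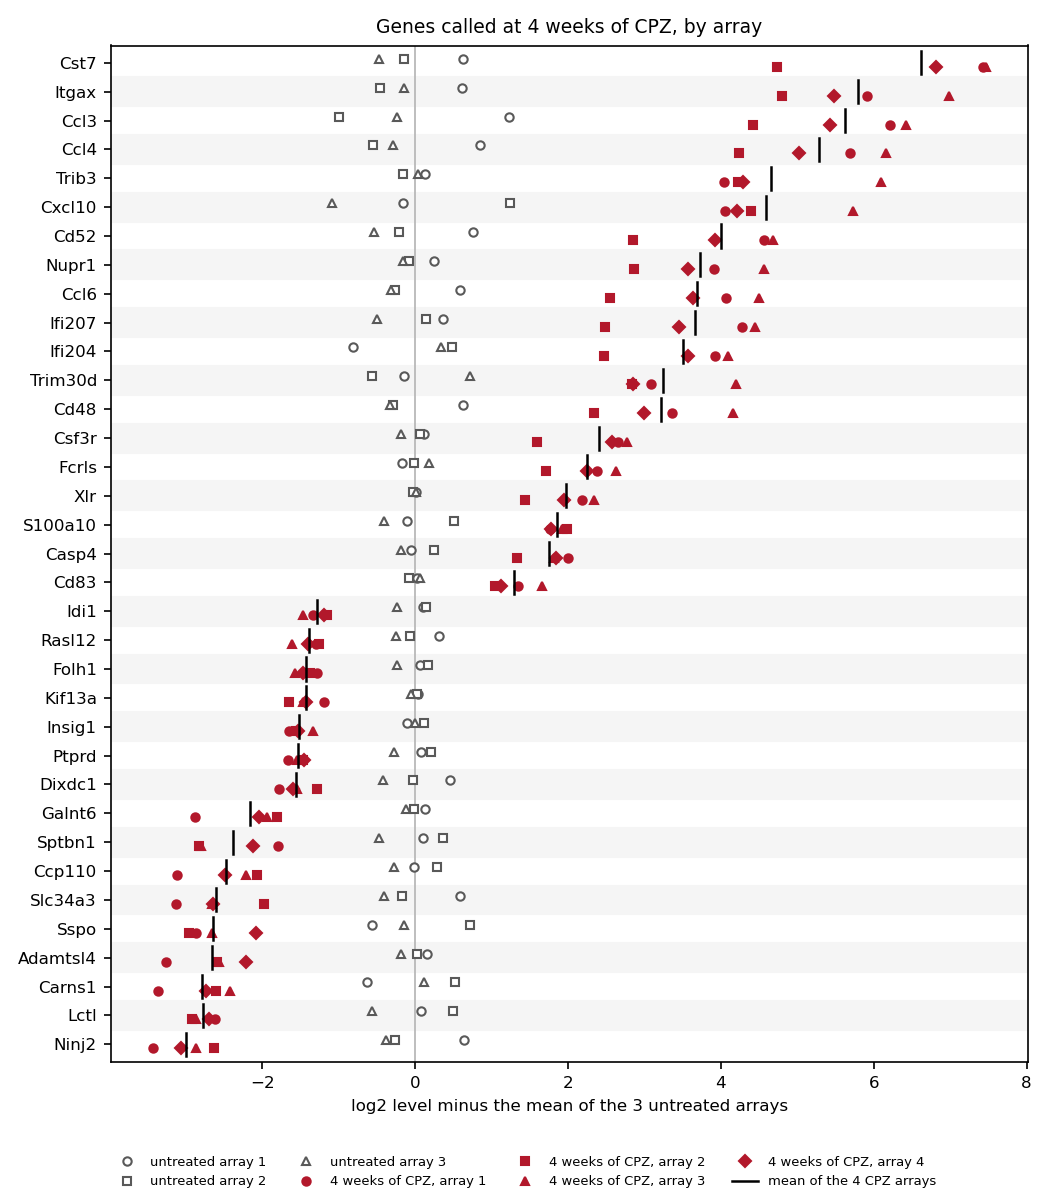
The 35 named genes called at 4 weeks of CPZ, each row a gene on its called probe (the brightest tested where that was called). The x axis is the log2 level minus the mean of the 3 untreated arrays, open symbols are untreated arrays, filled symbols are CPZ arrays and the bar is the mean of the 4 CPZ arrays. No filled symbol overlaps the open symbols of its row, and CPZ array 2 (filled squares) lies nearest to the untreated arrays for most genes that rose.

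Several of the genes that rose most are known from microglia in the phagocytic state. Cystatin F (Cst7), an inhibitor of lysosomal cysteine proteases, was not well above background on any untreated array. Its level was -4.18, -4.95 and -5.27 there and 2.63, -0.06, 2.67 and 2.02 on the CPZ arrays, a rise of at least 87.1-fold (adjusted p = 0.0196). Itgax, which encodes the integrin subunit CD11c, stood at -3.67, -4.75 and -4.44 against 1.62, 0.51, 2.70 and 1.19 and rose by 5.79 ± 0.56 (log2 fold change ± SE, adjusted p = 0.0196). The lowest CPZ array of both genes was array 2, and it still lay far above the highest untreated array. Cd52, a small surface glycoprotein of leukocytes, was measured on all arrays at 0.64, -0.33 and -0.66 against 4.45, 2.73, 4.57 and 3.81 (4.01 ± 0.59). Cd48, a ligand for receptors on lymphocytes, stood at -3.38, -4.29 and -4.33 against -0.64, -1.66, 0.16 and -1.01 (3.21 ± 0.47). Itgax and Cd48 were well above background on 2 of the 3 untreated arrays. Cd83, a surface protein of activated antigen-presenting cells, had the smallest rise among the called genes, from 0.61, 0.50 and 0.65 to 1.93, 1.63, 2.24 and 1.71 (1.29 ± 0.19), with little spread in either group.

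Of 21 tested genes of the disease-associated microglia state, 5 were called (Cst7, Itgax, Cd52, Ccl6 and Cd83) and 17 (81.0%, against 5.31% of all genes) lay higher on all CPZ arrays, with a median log2 fold change of 2.42. Of the 17 members well above background on all 7 arrays, 13 lay higher (76.5%, against 5.73% of all genes measured on all 7), with a median of 2.35, and the median of the 21 was 1.63 with the normexp background correction. The slide as a fixed or random block gave 15 and 17 calls. Secreted osteopontin (Spp1) had a difference nearly as large as that of Itgax without being called. The level of Spp1 was -2.63, -3.40 and -3.24 untreated and 4.39, -0.14, 3.03 and 3.36 with CPZ (5.75 ± 0.97, adjusted p = 0.0628), and array 2 stood far below the other CPZ arrays. Galectin-3 (Lgals3), a lectin of phagocytes, was at -1.63, -2.10 and -2.59 against 0.93, 0.03, 1.76 and 0.81 (2.99 ± 0.48, adjusted p = 0.0581). The lipid receptor Trem2 was higher by 2.40 ± 0.50. Gpnmb, a membrane glycoprotein of lysosome-rich macrophages, was at -3.92, -4.79 and -4.31 against 0.45, -2.57, 0.41 and 0.05. For both genes all CPZ arrays lay above all untreated arrays, and array 2 was again the lowest.

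Homeostatic microglia genes are those that surveying microglia express. Of 16 tested, 1 was called (5 and 2 with the slide as a fixed or random block). On all CPZ arrays 6 lay higher (37.5%, against 5.31% of all genes), with a median of 0.74. The called gene was Fcrls, a receptor-like protein that marks resident microglia. It stood at -1.55, -1.40 and -1.20 against 1.00, 0.33, 1.25 and 0.86 (2.24 ± 0.31, adjusted p = 0.0467), and its other probe was called as well at 2.52. The purine receptor P2ry12 was at 0.69, -0.04 and -0.21 against 0.33, 0.74, 0.35 and 0.39, a log2 difference of 0.30 ± 0.30. Tmem119, a membrane protein used to mark resident microglia, was at 2.05, 1.14 and 0.85 against 1.46, 1.30, 1.45 and 1.48, a difference of 0.08 ± 0.30. For both of these genes the groups overlapped, and untreated array 1 was the highest of its group. The fractalkine receptor Cx3cr1 (0.80 ± 0.35) and the growth factor receptor Csf1r (0.67 ± 0.35) also overlapped between groups. Genes for blood-derived monocytes, neutrophils and border macrophages were tested for 8 of 14 members. None was called, all 8 overlapped, and their median was 0.25. Their summed linear level ran from 8.63 to 14.2 on the untreated arrays and from 9.40 to 15.1 on the CPZ arrays, and Ccr2, the defining receptor of blood monocytes, was too dim to be tested. Mrc1 (-0.59 ± 0.77), Cd163 (0.82 ± 0.64) and S100a8 (0.27 ± 0.64) overlapped. Csf3r, the receptor for the neutrophil growth factor G-CSF, which microglia also carry, was not well above background on any untreated array and rose by at least 4.55-fold, from -4.72, -4.77 and -5.02 to -2.18, -3.24, -2.07 and -2.26.

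Chemokines draw leukocytes and microglia along a gradient. Of 15 tested, 4 were called and 10 lay higher on all CPZ arrays, with a median of 2.09. Ccl2, Ccl3 and Ccl7 were well above background on no untreated array, and Ccl7 on no CPZ array either, so they could be tested only through arrays of CPZ. Of the 11 chemokines well above background on all 7 arrays, 6 lay higher on all CPZ arrays, with a median of 1.59. The median of the 15 was 0.42 with the normexp background correction. The slide as a fixed or random block gave 8 and 9 calls. Ccl3 stood at -3.78, -6.00 and -5.24 untreated, on no array well above background, and at 1.21, -0.59, 1.42 and 0.42 with CPZ, a rise of at least 34.6-fold (adjusted p = 0.0293). Ccl4, a close relative, stood at -3.44, -4.84 and -4.57 against 1.41, -0.05, 1.88 and 0.74 (5.28 ± 0.57, adjusted p = 0.0196). Cxcl10, an interferon-induced ligand of CXCR3, was at -3.72, -2.32 and -4.65 against 0.49, 0.83, 2.16 and 0.65 (4.59 ± 0.68, adjusted p = 0.0493). Ccl6 was at -0.48, -1.33 and -1.38 against 3.01, 1.49, 3.43 and 2.57 (3.69 ± 0.54, adjusted p = 0.0467). Ccl4 was well above background on 2 of the 3 untreated arrays. For the 4 genes the gap between groups was wider than the range within either. Ccl2, the main ligand for monocyte recruitment through CCR2, was not called. It was not well above background on any untreated array and stood at -2.19, -3.91, -1.81 and -2.92 with CPZ, at least 3.93-fold higher (adjusted p = 0.154). Cxcl12, Cxcl14, Cx3cl1, Ccl25 and Ccl27a had differences from -0.65 to 0.38 and overlapped between groups.

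Classical cytokines were often too dim to measure. Of 21 listed cytokine and receptor genes, 12 passed the filter on dim probes and none was called (1 and 1 with the slide as a fixed or random block), while Tnf, Il1a, Il6, Il10, Il15, Osm, Il1rn and Tnfsf10 were on the array but too dim to be tested. Il1b was well above background on no untreated array and stood at -4.54, -4.27, -3.41 and -4.34 with CPZ, at least 1.46-fold higher (adjusted p = 0.0739). With the normexp background correction its difference was -0.03. Il33, an alarmin that mature oligodendrocytes of the mouse store in the nucleus, stood at 3.70, 3.12 and 2.67 against -1.02, 1.80, 0.72 and 0.86 (-2.57 ± 0.70, adjusted p = 0.186). Il12rb1, a subunit of the interleukin-12 receptor, was likewise lower on all CPZ arrays, at -0.99, -0.42 and -1.41 against -5.06, -2.75, -2.55 and -4.18. Tgfb1 was higher on all of them, with a difference of 1.07 ± 0.34.

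Fc and complement receptors let microglia bind what has been marked for removal. Of 17 Fc receptor and complement genes tested, 14 lay higher on all CPZ arrays, none was called and the median was 1.67. Of the 13 of them well above background on all 7 arrays, 11 lay higher, with a median of 1.62, and the median of the 17 was 0.71 with the normexp background correction. C1qa, a subunit of the complex that starts the complement cascade, was at 2.23, 1.23 and 1.11 against 2.89, 2.70, 4.46 and 3.07. The complement components C3 (1.51 ± 0.78) and C4b (1.29 ± 0.43) differed in overlap, since only C4b lay higher on all CPZ arrays, and its probe may also bind a near-identical copy. Fcer1g, the signalling chain that Fc receptors share, was at 2.35, 1.29 and 1.24 against 3.94, 2.85, 4.40 and 3.64 (2.08 ± 0.45, adjusted p = 0.105). Of 13 Toll-like receptor and phagocyte oxidase genes tested, 10 lay higher on all CPZ arrays, with a median of 1.63, and of the 11 well above background on all 7 arrays, 8 lay higher. The median of the 13 was 0.86 with normexp. Tlr2 was at -2.14, -3.58 and -3.51 against 0.12, -1.0, 0.89 and -0.29 (3.01 ± 0.56, adjusted p = 0.0812). The lipopolysaccharide co-receptor Cd14 (2.00 ± 0.44) and the oxidase subunit Cyba (1.51 ± 0.51) lay higher on all CPZ arrays too. Cybb, the catalytic subunit of the oxidase, was well above background on no untreated array and stood at -3.21, -4.07, -2.08 and -3.40 with CPZ, at least 2.81-fold higher. Of 19 lysosomal genes tested, 12 lay higher on all CPZ arrays, with a median of 1.16. The aspartyl protease Ctsd was at 5.49, 4.69 and 4.82 against 7.79, 5.85, 7.5 and 7.25 (2.10 ± 0.47, adjusted p = 0.112), and the cysteine protease Ctss was higher on all CPZ arrays (1.57 ± 0.45), while the lysosomal membrane protein Lamp2 overlapped between groups (0.54 ± 0.51). In these 3 lists no member was called, and no member was lower on all CPZ arrays. With the slide as a fixed block limma called 11 Fc receptor and complement genes, 10 Toll-like receptor and oxidase genes and 7 lysosomal genes, and as a random block 9, 7 and 5, all of them higher.

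**Figure D2:**
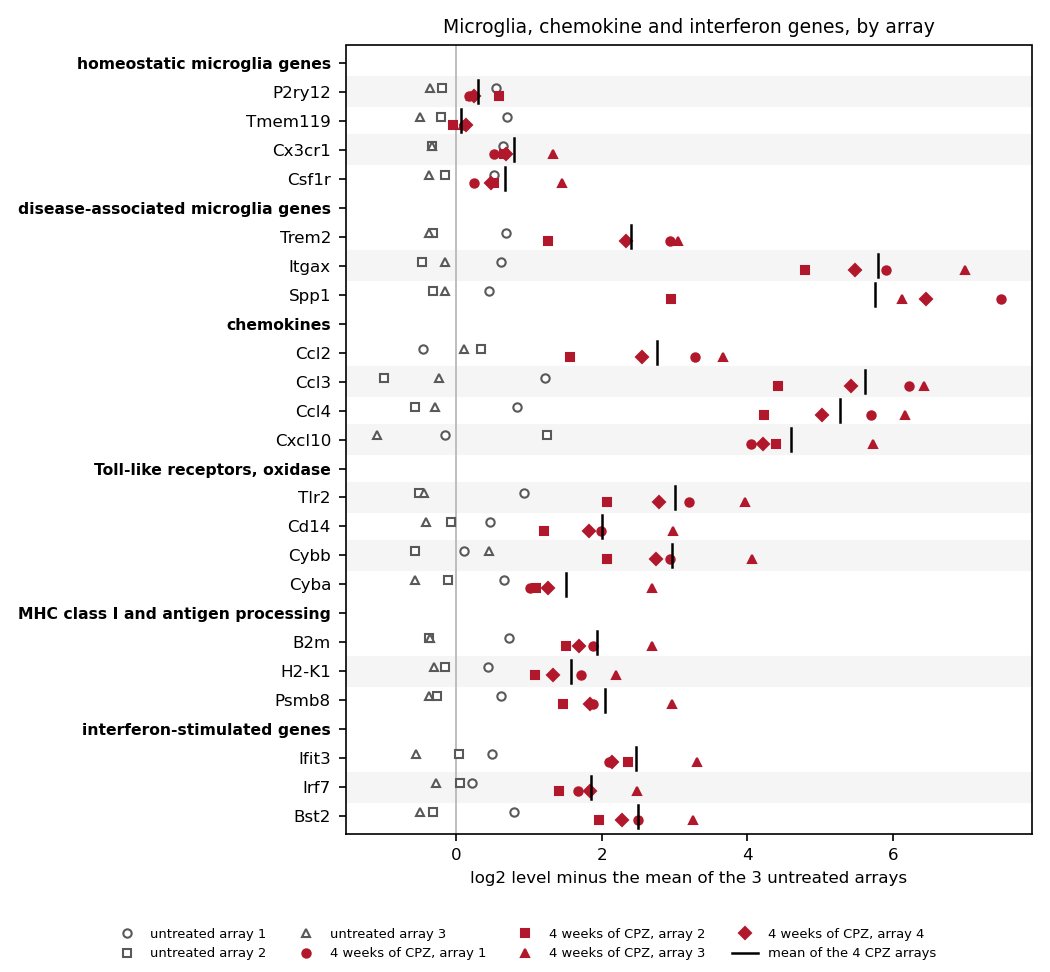
Lead genes of 6 lists of microglia, chemokine and interferon genes, with the log2 level minus the mean of the 3 untreated arrays on the x axis. Open symbols are untreated arrays, filled symbols CPZ arrays, and the bar is the mean of the CPZ arrays. The 4 homeostatic genes overlap between groups, while in the rows of the other lists shown all 4 CPZ arrays lie above the untreated arrays.

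Interferon-stimulated genes are switched on through an upstream element read by STAT and IRF proteins. Of 24 tested, 19 lay higher on all 4 CPZ arrays and 24 had a positive difference, with a median of 1.80, and none was called. Of the 22 well above background on all 7 arrays, 17 lay higher, with a median of 1.71, and the median of the 24 was 0.95 with the normexp background correction. Ifit3, a member of a family that binds foreign RNA, was at -0.07, -0.52 and -1.11 against 1.53, 1.79, 2.74 and 1.58 (2.47 ± 0.48, adjusted p = 0.0843). Irf7, the factor that amplifies the response, was at -3.85, -4.01 and -4.35 against -2.39, -2.65, -1.58 and -2.23 (1.86 ± 0.42). Bst2, which tethers virus particles to the cell surface, was at 0.29, -0.83 and -1.0 against 1.99, 1.45, 2.74 and 1.77 (2.50 ± 0.58). CPZ array 3 was the highest of the CPZ arrays for 22 of the 24 genes. Without untreated array 1 and CPZ arrays 2 and 3, the arrays with the fewest probes above background, limma called 3 of these genes, with the slide as a random block 13 and as a fixed block 17.

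Ifi204, a nucleic acid sensor of the HIN-200 family, is not on this list and was called on 2 probes. The brightest stood at -5.55, -4.26 and -4.40 against -0.82, -2.27, -0.65 and -1.17 (3.51 ± 0.51) and was well above background on 1 of the 3 untreated arrays. The other was well above background on none of them and rose by at least 7.21-fold. Its relative Ifi207 was well above background on no untreated array and rose by at least 2.59-fold. Trim30d, a member of a family of interferon-inducible ubiquitin ligases, rose on its called probe from -5.94, -6.36 and -5.08 to -2.71, -2.96, -1.60 and -2.94, at least 4.27-fold, while its brightest probe had 2.00 and was not called. Casp4, the inflammatory caspase that senses bacterial lipopolysaccharide in the cytosol, rose from -3.33, -3.02 and -3.46 to -1.27, -1.94, -1.46 and -1.43 (1.75 ± 0.25, adjusted p = 0.0467). These families hold near-identical copies whose transcripts may share a probe, so the assignment to 1 copy is uncertain. Xlr, a gene of a multicopy X-linked family first seen in lymphocytes, rose from -3.63, -3.66 and -3.62 to -1.46, -2.20, -1.30 and -1.69 (1.98 ± 0.26), with 2.05 on its other probe.

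MHC class I molecules show peptides of the cell to T cells. Of 16 tested genes of MHC class I and antigen processing, 12 lay higher on all CPZ arrays, with a median of 1.12, and none was called, against 9 and 4 with the slide as a fixed or random block. B2m, the invariant light chain, was at 3.26, 2.16 and 2.18 against 4.41, 4.04, 5.23 and 4.22 (1.94 ± 0.43, adjusted p = 0.112). H2-K1, a heavy chain, was at 2.44, 1.85 and 1.69 against 3.71, 3.08, 4.19 and 3.32 (1.58 ± 0.40). The immunoproteasome subunit Psmb8 was at -0.44, -1.32 and -1.43 against 0.82, 0.41, 1.90 and 0.78 (2.04 ± 0.49). Of 10 class II genes 5 were tested, and 4 of these lay higher on all CPZ arrays, with none called (3 and 2 with the slide as a fixed or random block) and a median of 1.62, or 0.54 with the normexp background correction. The invariant chain Cd74 was at -2.03, -3.06 and -2.64 against -1.24, -0.70, 0.45 and -0.77 (2.01 ± 0.42). The class II chain H2-Ab1 was higher by 1.76 ± 0.58 and the costimulatory ligand Cd86 by 1.41 ± 0.33. CPZ array 3 was the highest CPZ array for 14 of the 16 class I genes. T and B lymphocyte genes were dim throughout. Of 13 listed, 7 were tested and none was called (2 and 0 with the slide as a fixed or random block). On all CPZ arrays 1 (Nkg7) lay higher (14.3%, against 5.31% of all genes), and the median was 0.34. Of the 3 well above background on all 7 arrays, none lay higher. Cd3d, Cd3g, Cd8a and Ms4a1, which define T and B cells, were too dim to be tested. Cd3e (0.34 ± 0.18) and Cd4 (-0.28 ± 0.26) overlapped between groups.

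The sequence upstream of list genes was read from RefSeq (build GRCm38.p6) for the 250 bases before the gene start. In the lines below, lower case is the sequence 5′ to 3′ on the strand of the gene, and capitals mark every match to the interferon-stimulated response element, searched on both strands as TTTC, any 2 bases and TTTC again (GAAA, any 2 bases and GAAA on the other). Cxcl10 is shown as the called interferon-induced gene, Ifit3 as a lead gene with separate matches and Oas1a as a gene with overlapping matches.
Cxcl10, chr5:92348890-92349139, minus strand: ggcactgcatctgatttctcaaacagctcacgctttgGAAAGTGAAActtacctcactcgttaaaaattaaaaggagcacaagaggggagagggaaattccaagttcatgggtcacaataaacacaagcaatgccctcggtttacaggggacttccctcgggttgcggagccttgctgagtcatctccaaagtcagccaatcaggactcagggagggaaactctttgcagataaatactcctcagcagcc
Ifit3, chr19:34583279-34583528, plus strand: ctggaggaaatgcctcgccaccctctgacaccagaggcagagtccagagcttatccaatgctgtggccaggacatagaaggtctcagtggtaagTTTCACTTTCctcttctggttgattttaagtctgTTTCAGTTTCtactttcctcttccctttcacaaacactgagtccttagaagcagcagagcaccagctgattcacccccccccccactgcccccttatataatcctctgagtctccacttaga
Oas1a, chr5:120907526-120907775, minus strand: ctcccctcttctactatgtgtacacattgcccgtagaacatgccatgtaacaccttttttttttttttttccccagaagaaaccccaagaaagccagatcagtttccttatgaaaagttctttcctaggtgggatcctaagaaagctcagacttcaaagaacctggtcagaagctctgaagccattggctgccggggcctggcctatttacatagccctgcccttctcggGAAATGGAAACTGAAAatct
Such a match was present before 9 of the 20 interferon-stimulated genes that the table held and before 3.08% of the 11063 tested genes it held. These 9 genes had log2 differences from 0.04 (Stat2) to 3.13 (Oas1a). Cxcl10, which belongs to the chemokine list, is not among them. A match describes the letters and not the binding of a factor.

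The integrated stress response reduces protein synthesis and lets the factor ATF4 switch on genes for amino acid supply and for growth arrest or cell death. Of 29 tested genes of this response, 2 were called (7 and 6 with the slide as a fixed or random block), 16 lay higher on all CPZ arrays and none lay lower on all of them, with a median of 0.72. Trib3, a pseudokinase that restrains AKT and ATF4 itself, was at -3.23, -3.52 and -3.33 against 0.68, 0.86, 2.73 and 0.93 (4.66 ± 0.58, adjusted p = 0.0392). Its other probe had 1.85 and was not called. Nupr1, a stress-induced chromatin protein, was at 0.12, -0.21 and -0.28 against 3.78, 2.74, 4.44 and 3.45 (3.73 ± 0.39, adjusted p = 0.0196). For both genes the 3 untreated arrays lay close together, and the lowest CPZ array stood far above the highest of them.

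No other target was called. Gdf15, a circulating stress hormone, was at -3.86, -4.86 and -3.61 against -1.25, -1.63, 2.16 and -1.07 (3.66 ± 0.92, adjusted p = 0.149). Atf5 was at 3.68, 2.94 and 2.62 against 5.48, 4.77, 6.98 and 5.22 (2.53 ± 0.53, adjusted p = 0.0991). Eif4ebp1, which blocks cap-dependent translation, was at 0.23, -0.48 and -0.53 against 1.84, 1.39, 2.60 and 1.57 (2.11 ± 0.37), and the glutathione-degrading enzyme Chac1 at 0.20, -0.52 and 0.29 against 0.89, 2.04, 2.07 and 1.51 (1.64 ± 0.32). Asparagine synthetase (Asns) was higher on all CPZ arrays by 0.73 ± 0.21. Atf4 itself was at 0.41, 0.55 and 0.68 against 0.51, 0.88, 1.65 and 0.73 and overlapped between groups, as did the pro-apoptotic factor Ddit3 at 0.79, 0.10 and 0.09 against 0.63, 0.95, 2.38 and 0.89. The serine synthesis genes Psat1 and Phgdh, which ATF4 also controls, had -0.51 ± 0.37 and -0.24 ± 0.44. CPZ array 3 was the highest of the CPZ arrays for 25 of the 29 genes.

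Other branches of the unfolded protein response raise chaperones of the endoplasmic reticulum through XBP1 and ATF6. Of 15 such genes tested, none was called, all overlapped between groups, and the differences ran from -0.36 to 0.60 with a median of 0.20. The chaperone Hspa5 (BiP) was at 4.28, 3.55 and 3.35 against 4.03, 3.80, 3.99 and 3.89. The co-chaperone Dnajb9 had 0.20 ± 0.27, the factor Xbp1 itself -0.36 ± 0.32 and Herpud1, which serves protein disposal, 0.05 ± 0.25. The difference between these 2 lists was not tested. Of 18 p53 target and apoptosis genes, none was called (2 and 0 with the slide as a fixed or random block) and 4 lay higher on all CPZ arrays, with a median of 0.45. Cdkn1a, the cell cycle inhibitor p21, was at -0.55, 0.39 and -0.55 against 1.19, 0.45, 3.26 and 0.99 (1.71 ± 0.64, adjusted p = 0.374), the highest again on CPZ array 3. Of the cell death genes, Bbc3 was higher on all CPZ arrays (0.58 ± 0.36) and Bax overlapped (0.23 ± 0.40), as did the p53 inhibitor Mdm2 (-0.29 ± 0.32). Of 18 Nrf2 antioxidant genes, 2 lay higher (11.1%, against 5.31% of all genes) and 1 lower (5.6%, against 4.44%) on all CPZ arrays. None was called (1 and 1 with the slide as a fixed or random block) and the median was 0.22. Haem oxygenase 1 (Hmox1) had the largest difference, at -1.49, -1.37 and -1.68 against 0.94, -0.01, 0.84 and 0.83 (2.16 ± 0.47, adjusted p = 0.105). Nqo1 had 0.59 ± 0.45, Gclm -0.59 ± 0.37 and Srxn1 0.16 ± 0.25, with overlapping groups. Of 19 copper and iron handling genes, 1 lay higher on all CPZ arrays, a share of 5.3% against 5.31% of all genes. This was Mt2, a metal-binding metallothionein, at 7.10 and 6.39 on untreated arrays 2 and 3 against 8.19, 8.00, 8.53 and 7.96 (1.43 ± 0.39, adjusted p = 0.202). Its spot on untreated array 1 was an outlier and was left out of the fit. Its relative Mt1 had 0.65 ± 0.38, the copper importer Slc31a1 0.77 ± 0.33 and the transferrin receptor Tfrc -0.27 ± 0.28. The 28 nuclear genes of the mitochondrial respiratory complexes all overlapped between groups, with differences from -0.11 to 0.42. Complex IV, which holds copper, was represented by Cox4i1 at 0.19 ± 0.26 and Cox5a at 0.17 ± 0.27, complex I by Ndufs1 at 0.03 ± 0.19 and complex II by Sdhb at -0.05 ± 0.35.

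The ATF4 element was searched in the same 250 bases as TGATGNAA on both strands (TTNCATCA on the other), again in capitals. Nupr1 is shown as the called gene with a match, Slc7a11, the cystine transporter, as the gene with most matches, and Trib3 as the called gene with none in this window.
Nupr1, chr7:126625471-126625720, minus strand: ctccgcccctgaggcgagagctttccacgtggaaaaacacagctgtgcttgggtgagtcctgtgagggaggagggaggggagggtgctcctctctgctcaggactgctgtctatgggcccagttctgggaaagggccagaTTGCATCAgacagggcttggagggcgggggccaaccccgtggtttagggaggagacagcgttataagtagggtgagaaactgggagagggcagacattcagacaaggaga
Slc7a11, chr3:50443614-50443863, minus strand: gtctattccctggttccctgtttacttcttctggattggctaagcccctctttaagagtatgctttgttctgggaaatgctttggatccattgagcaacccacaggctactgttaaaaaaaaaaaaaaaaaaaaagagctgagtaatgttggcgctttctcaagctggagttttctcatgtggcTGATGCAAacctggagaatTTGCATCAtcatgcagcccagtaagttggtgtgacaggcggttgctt
Trib3, chr2:152344061-152344310, minus strand: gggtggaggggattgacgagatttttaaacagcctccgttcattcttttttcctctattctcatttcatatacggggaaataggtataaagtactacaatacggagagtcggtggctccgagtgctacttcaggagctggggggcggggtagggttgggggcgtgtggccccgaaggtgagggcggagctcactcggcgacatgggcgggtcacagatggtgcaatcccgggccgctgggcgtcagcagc
A match was present before 8 of the 25 stress response genes that the table held (Nupr1, Chac1, Atf3, Asns, Slc7a11, Vldlr, Aars and Pck2) and before 2.53% of the 11063 tested genes. Slc7a11 stood at -0.54, -0.78 and -1.31 against 0.13, -0.80, 1.29 and -0.50 and overlapped between groups, and Vldlr had a difference of -0.57 ± 0.22. Of the 2 called genes of the list, Nupr1 had a match and Trib3 had none.

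Mature oligodendrocytes express the proteins that build and hold the myelin sheath. The myelin list, chosen with its behaviour in these samples known, had 14 of 19 tested genes lower on all CPZ arrays, none called (0 and 1 with the slide as a fixed or random block) and a median of -2.28. With array weights limma called 15 of them lower. Those weights were 0.47, 0.46, 0.28 and 6.32 for CPZ arrays 1 to 4. Calls with array weights, here and below, therefore rest mostly on CPZ array 4. Without CPZ array 1 the median of the list was -1.63. Its median shift from the untreated mean was -3.99 on CPZ array 1, -1.36 on array 2, -1.14 on array 3 and -2.35 on array 4. CPZ array 1 was the lowest for 17 of the 19 genes, and array 3 or array 2 the highest for all 19. Mog, on the outer myelin surface, was at 1.38, 1.32 and 0.79 against -3.47, -0.31, -0.99 and -1.56 (-2.75 ± 0.96), and Mag, at the inner wrap, at 7.21, 6.66 and 5.97 against 2.62, 5.64, 5.77 and 4.43 (-2.0 ± 0.87). The myelin enzyme Cnp overlapped between groups through CPZ array 3, at 6.43, 5.56 and 4.85 against 1.95, 4.65, 5.37 and 3.76. Mal, a raft protein of compact myelin, had the lowest difference of the list, -3.50 ± 0.71 (adjusted p = 0.0909). The order of the CPZ arrays, from array 1 over 4 and 2 to 3, was the same as for the median shift of choroid plexus genes (-1.88, 0.34, 1.44 and 2.96), and the part of those cells in the myelin values was not tested. The median shift of the myelin list within slides was -1.18 for CPZ array 3 against untreated array 2 and -3.38 for CPZ array 1 against untreated array 3.

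Of 25 other genes of mature oligodendrocytes tested, 2 were called (2 and 4 with the slide as a fixed or random block, 20 with array weights). Ninj2, an adhesion protein, fell from 0.17, -0.73 and -0.85 to -3.90, -3.10, -3.34 and -3.54 (-3.0 ± 0.29, adjusted p = 0.0196). Carns1, the synthase of the dipeptide carnosine, fell from -2.40, -1.25 and -1.65 to -5.13, -4.38, -4.19 and -4.51 (-2.78 ± 0.38, adjusted p = 0.0438) and was well above background on 2 of the 4 CPZ arrays. In this list 18 genes lay lower on all CPZ arrays, and the median was -2.06, or -1.38 with the normexp background correction. Aspa, which degrades N-acetylaspartate, was at 3.63, 3.49 and 2.84 against -0.44, 0.94, 1.14 and 0.21 (-2.86 ± 0.69), and carbonic anhydrase 2 (Car2) at 5.53, 4.59 and 4.41 against 1.48, 3.62, 3.89 and 2.77 (-1.91 ± 0.69). The iron carrier transferrin (Trf), which the choroid plexus also makes, overlapped between groups, at 5.01, 4.69 and 4.27 against 2.15, 4.90, 5.54 and 4.01 (-0.51 ± 0.92), as did the actin-severing protein gelsolin (Gsn, -1.04 ± 0.63).

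**Figure D3:**
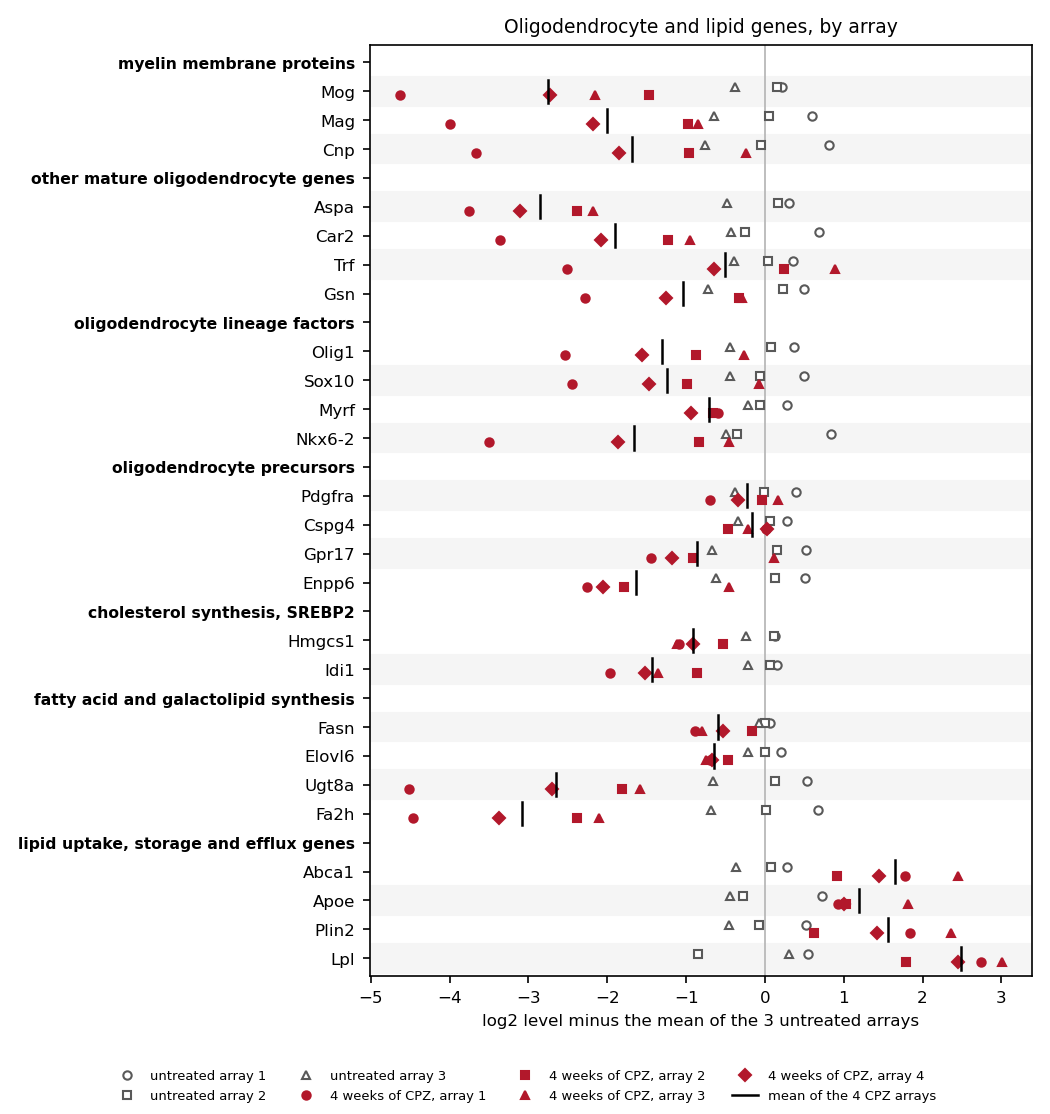
Lead genes of 7 oligodendrocyte and lipid lists, with the log2 level minus the mean of the 3 untreated arrays on the x axis. Open symbols are untreated arrays, filled symbols CPZ arrays, and the bar is the mean of the CPZ arrays. CPZ array 1 (filled circles) lies farthest left in the mature oligodendrocyte rows, the precursor gene Pdgfra lies around 0, and the CPZ arrays of Idi1 lie closer together than those of Mog, Mag and Cnp.

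Other genes of the oligodendrocyte lineage are on before myelination. Of 13 lineage transcription factors, 3 lay lower on all CPZ arrays (Sox8, Myrf and Zfp536), none was called and the median was -0.47. Sox10, needed at all stages of the lineage, was at 3.66, 3.11 and 2.73 against 0.72, 2.18, 3.09 and 1.69 (-1.25 ± 0.59), and Olig1 at 4.22, 3.93 and 3.41 against 1.32, 2.98, 3.59 and 2.29 (-1.31 ± 0.54). Nkx6-2, a homeodomain factor of late oligodendrocytes, had -1.66 ± 0.94, and these 3 genes overlapped between groups. Of 17 genes of precursors and premyelinating cells, 1 (Mycl, 5.9%, against 4.44% of all genes) lay lower on all CPZ arrays and the median was -0.33. The growth factor receptor Pdgfra, a marker of precursors, was at 0.98, 0.57 and 0.21 against -0.11, 0.55, 0.75 and 0.24 (-0.23 ± 0.30), and the proteoglycan Cspg4 (NG2) had -0.16 ± 0.22, with overlapping groups for both. Enpp6, a marker of cells that have begun to form myelin, was at -0.89, -1.27 and -2.02 against -3.65, -3.18, -1.85 and -3.45 (-1.64 ± 0.50, adjusted p = 0.248), and Gpr17, a receptor of the stage before, had -0.85 ± 0.44. Of 21 cell division genes, none was called and 1 (Tyms, 4.8%, against 5.31% of all genes) lay higher on all CPZ arrays, with a median of 0.10. The proliferation antigen Mki67 had 0.30 ± 0.35, the topoisomerase Top2a 0.55 ± 0.60 and the replication helicase subunit Mcm5 -0.09 ± 0.21.

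Proteins at the node of Ranvier and beside it come from the axon and from the myelinating cell. Of 14 tested, 5 lay lower on all CPZ arrays (Cntn2, Nfasc, Kcna1, Epb41l3 and Lgi3), none was called (2 and 3 with the slide as a fixed or random block) and the median was -0.07. Cntn2, an adhesion protein of the juxtaparanode, was at 3.66, 3.39 and 2.73 against 0.73, 1.80, 1.94 and 1.27 (-1.83 ± 0.34, adjusted p = 0.0812). The potassium channel Kcna1 was at 6.05, 6.22 and 5.68 against 4.85, 4.86, 4.49 and 4.84 (-1.22 ± 0.23, adjusted p = 0.0795). Cntnap1, the axonal partner at the paranode, overlapped between groups (0.12 ± 0.31). Of 17 neuronal and axonal genes, none was called and none lay on the same side on all CPZ arrays, with differences from -0.48 to 0.54. The neurofilament Nefl had 0.37 ± 0.43, the synaptic proteins Snap25 and Syt1 had 0.47 ± 0.49 and 0.50 ± 0.41, and the tubulin Tubb3 had -0.05 ± 0.30.

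Cholesterol synthesis supplies the main lipid of myelin and is controlled by SREBP2 with its sterol sensor. Of 24 genes tested, 17 lay lower on all CPZ arrays, 24 had a negative difference on the brightest probe and 2 were called (3 and 7 with the slide as a fixed or random block), with a median of -0.80. Probes of Fdft1 disagreed, with -0.89 on the brightest and 0.98 on the other. With array weights limma called 12 lower and 1 higher. Idi1, an isomerase early in the pathway, was called on a probe that stood at 0.05, 0.08 and -0.30 against -1.40, -1.21, -1.52 and -1.25 (-1.29 ± 0.17, adjusted p = 0.0392). Its brightest probe had -1.43 and was not called. Insig1, which holds SREBP back when sterols are plentiful and is itself a target of SREBP2, was called at -0.49, -0.27 and -0.38 against -2.03, -1.94, -1.72 and -1.91 (-1.52 ± 0.20, adjusted p = 0.0392), and its brightest probe had -1.10. The CPZ arrays spanned 0.31 on both called probes. Hmgcs1, an early enzyme of the pathway, was at 5.01, 5.00 and 4.65 against 3.80, 4.35, 3.77 and 3.98 (-0.91 ± 0.19, adjusted p = 0.1). The median shift of the list was -1.12, -0.52, -0.68 and -0.86 on CPZ arrays 1 to 4, and within the 2 slides -0.70 and -1.12.

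The core of the sterol regulatory element was searched as TCACCCCA on both strands (TGGGGTGA on the other) in the 250 bases before the gene start. Hmgcs1 is shown as the lead gene with a match.
Hmgcs1, chr13:119690101-119690350, plus strand: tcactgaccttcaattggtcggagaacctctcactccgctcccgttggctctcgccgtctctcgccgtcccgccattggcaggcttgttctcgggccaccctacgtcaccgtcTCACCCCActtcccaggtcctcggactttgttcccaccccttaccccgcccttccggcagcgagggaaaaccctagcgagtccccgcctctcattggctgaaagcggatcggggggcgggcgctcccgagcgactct
A match was present before 2 of the 17 genes of the list that the table held (Hmgcs1 and Srebf2) and before 1.68% of the 11063 tested genes. The called genes Idi1 and Insig1 had none in this window, which says only that these letters are not there.

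Of 20 genes of fatty acid and galactolipid synthesis tested, 10 lay lower and 1 (Fads2) higher on all CPZ arrays, none was called (8 lower with array weights) and the median was -0.63. Among enzymes that make the galactolipids of myelin, Fa2h and Ugt8a had the lowest differences of the list, while Gal3st1 had -1.64. Fa2h, which hydroxylates their fatty acids, was at 4.53, 3.87 and 3.18 against -0.60, 1.47, 1.76 and 0.49 (-3.08 ± 0.71, adjusted p = 0.118), and Ugt8a, which adds the galactose, at 3.13, 2.73 and 1.94 against -1.92, 0.79, 1.02 and -0.10 (-2.66 ± 0.79). Fatty acid synthase (Fasn), used by all cells, was at 5.85, 5.79 and 5.71 against 4.90, 5.62, 4.98 and 5.25 (-0.59 ± 0.20), and the elongase Elovl6 was lower on all CPZ arrays as well (-0.64 ± 0.20). Of 16 genes for uptake, storage and export of lipid tested, 6 lay higher on all CPZ arrays, none was called (5 and 4 with the slide as a fixed or random block) and the median was 0.43. Lipoprotein lipase (Lpl) was at 0.05, -1.35 and -0.19 against 2.24, 1.29, 2.51 and 1.95 (2.50 ± 0.48, adjusted p = 0.0857). Apolipoprotein C1 (Apoc1) was at 0.46, -0.30 and -0.70 against 3.94, 2.11, 4.59 and 3.25 (3.65 ± 0.62, adjusted p = 0.0639). The exporter Abca1 was at 0.39, 0.18 and -0.26 against 1.88, 1.02, 2.55 and 1.55 (1.64 ± 0.44), the droplet coat protein Plin2 was higher by 1.56 ± 0.51, and Apoe, the main lipid carrier of the brain, was at 8.24, 7.24 and 7.07 against 8.45, 8.54, 9.33 and 8.52 (1.19 ± 0.38). The transporter Npc1 overlapped between groups (-0.87 ± 0.28).

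Reactive astrocytes enlarge their cytoskeleton and secrete acute phase proteins. Of 16 reactive astrocyte genes tested, 8 lay higher on all CPZ arrays, none was called (7 and 5 with the slide as a fixed or random block) and the median was 1.38. Vimentin (Vim) was at 3.07, 2.30 and 1.53 against 4.73, 3.10, 5.06 and 4.14 (1.96 ± 0.62), and the oncostatin receptor Osmr at -0.90, -0.85 and -1.51 against 2.24, 0.12, 2.44 and 1.52 (2.67 ± 0.54, adjusted p = 0.09). Gfap, the intermediate filament of reactive astrocytes, overlapped between groups through untreated array 1, at 3.53, 3.00 and 2.25 against 3.47, 3.88, 4.99 and 3.89 (1.13 ± 0.47), and its other probe had 2.01. Serpina3n was at -1.59, -2.71 and -1.27 against -0.34, -0.11, 1.39 and 0.00 (2.09 ± 0.58), and Timp1, an inhibitor of matrix metalloproteases, at -2.03, -1.0 and -1.35 against 1.11, -0.95, 1.05 and 0.45 (1.88 ± 0.52). The transglutaminase Tgm1 was well above background on no untreated array and stood at 1.15, -3.87, 0.54 and 0.23 with CPZ, at least 17.9-fold higher, with array 2 far below the others (adjusted p = 0.134). Homeostatic astrocyte genes had a median of 0.12 over 15 tested, with 4 (Slc1a3, Gjb6, Aldh1l1 and Sox9) higher on all CPZ arrays and none called (1 and 0 with the slide as a fixed or random block). The water channel Aqp4 had 0.12 ± 0.44, the glutamate transporter Slc1a2 -0.10 ± 0.30, glutamine synthetase (Glul) -0.26 ± 0.31 and the potassium channel Kcnj10 -0.06 ± 0.29.

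S100a10, which tethers annexin A2 to the membrane, was the called gene of the S100, annexin and galectin group. It rose from -0.37, 0.25 and -0.67 to 1.5, 1.72, 1.66 and 1.51 (1.87 ± 0.27, adjusted p = 0.0467), with the CPZ arrays within 0.22 of each other. Of 15 genes of this group tested, 6 lay higher on all CPZ arrays and the median was 0.68, and 5 and 3 were called with the slide as a fixed or random block. Galectin-1 (Lgals1) was at 2.03, 1.16 and 1.14 against 3.45, 2.62, 3.16 and 3.09 (1.64 ± 0.38), S100a4 was higher by 1.71 ± 0.50, and Anxa2 overlapped between groups (1.11 ± 0.56). Of 15 trophic factors, 4 lay higher on all CPZ arrays, none was called (2 and 1 with the slide as a fixed or random block) and the median was 0.31. Igf1, a survival factor for new oligodendrocytes that microglia secrete, was at -1.80, -1.79 and -2.17 against 1.89, -0.70, 1.30 and 1.14 (2.82 ± 0.54, adjusted p = 0.0832), and Cntf was higher by 1.22 ± 0.49. Fgf2 (1.04 ± 0.54) and Pdgfa (-0.31 ± 0.24) overlapped between groups. Of 14 Timp, metalloprotease and Adamts genes, 1 was called (2 and 2 with the slide as a fixed or random block). On all CPZ arrays 2 lay higher (14.3%, against 5.31% of all genes) and 3 lower (21.4%, against 4.44%), and the median was 0.01. The called gene was Adamtsl4, a matrix protein without protease activity, which fell from -1.61, -1.75 and -1.95 to -5.03, -4.37, -4.34 and -3.99 (-2.66 ± 0.35, adjusted p = 0.0392) and was well above background on 1 of the 4 CPZ arrays. The inhibitor Timp3 was higher on all CPZ arrays (0.58 ± 0.29), while Timp2 (0.20 ± 0.16), Mmp14 (0.20 ± 0.35) and Adamts1 (0.03 ± 0.56) overlapped.

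Several called genes that fell are on no list. Ccp110, which caps the centriole and blocks cilium growth, was called on both of its probes, at 1.54, 1.84 and 1.28 against -1.56, -0.52, -0.66 and -0.93 (-2.47 ± 0.26, adjusted p = 0.0196) and at -2.32 on the other. Galnt6, which starts O-linked sugar chains, fell from -1.34, -1.49 and -1.59 to -4.35, -3.28, -3.41 and -3.52 (-2.16 ± 0.31) on a probe well above background on 3 of the 4 CPZ arrays, with -2.81 on its brightest probe. The folate and glutamate hydrolase Folh1 and the klotho-like protein Lctl were well above background on no CPZ array and fell at least 2.58-fold and at least 1.42-fold. Sspo, the giant protein secreted by the subcommissural organ, fell at least 4.58-fold in the same sense, from -2.91, -1.63 and -2.49 to -5.21, -5.31, -5.00 and -4.43. Slc34a3, a sodium phosphate cotransporter, fell from -0.11, -0.86 and -1.10 to -3.82, -2.67, -3.35 and -3.34 (-2.61 ± 0.36). Dixdc1, a Wnt pathway protein, fell by 1.56 on the log2 scale, the small GTPase Rasl12 by 1.39 and the motor protein Kif13a by 1.43 on its called probe, well above background on 2 of the 4 CPZ arrays, with -1.37 and -1.38 on its others. For Ptprd, a synapse-organising phosphatase, the called probe fell from 3.19, 3.33 and 2.84 to 1.45, 1.65, 1.57 and 1.66 (-1.53 ± 0.20), while its brightest probe had -0.94. Probes for the membrane skeleton protein Sptbn1 disagreed. Its 2 called probes had -2.39 and -2.93, the latter well above background on 1 of the 4 CPZ arrays, and its 3 others, the brightest among them, had 0.03, 0.03 and 0.39. The 6 called transcripts without a gene name comprise 2 that rose and 4 that fell.

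Endothelial, pericyte and barrier genes overlapped between groups in all 18 tested, with differences from -0.52 to 0.27. Cldn5 of tight junctions had -0.03 ± 0.55, Pecam1 0.09 ± 0.18, the glucose transporter Slc2a1 -0.21 ± 0.26 and the pericyte receptor Pdgfrb -0.16 ± 0.24. Red blood cell genes overlapped in all 5 tested, with CPZ array 2 the highest, at a median shift of 1.21. Haemoglobin alpha (Hba-a1) had 0.27 ± 0.56 and Alas2, the first enzyme of haem synthesis in red cells, 0.31 ± 0.48. Across the 36 lists, all 4 CPZ arrays had a median shift above 1 in 4 lists (disease-associated microglia, chemokines, Fc receptors and complement, and interferon-stimulated genes) and below -1 in the 2 lists of mature oligodendrocyte genes. CPZ array 2 had the lowest shift of the 4 in the disease-associated microglia list (1.44 against 2.39 to 3.08), and CPZ array 1 the lowest in the myelin list.

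**Figure D4:**
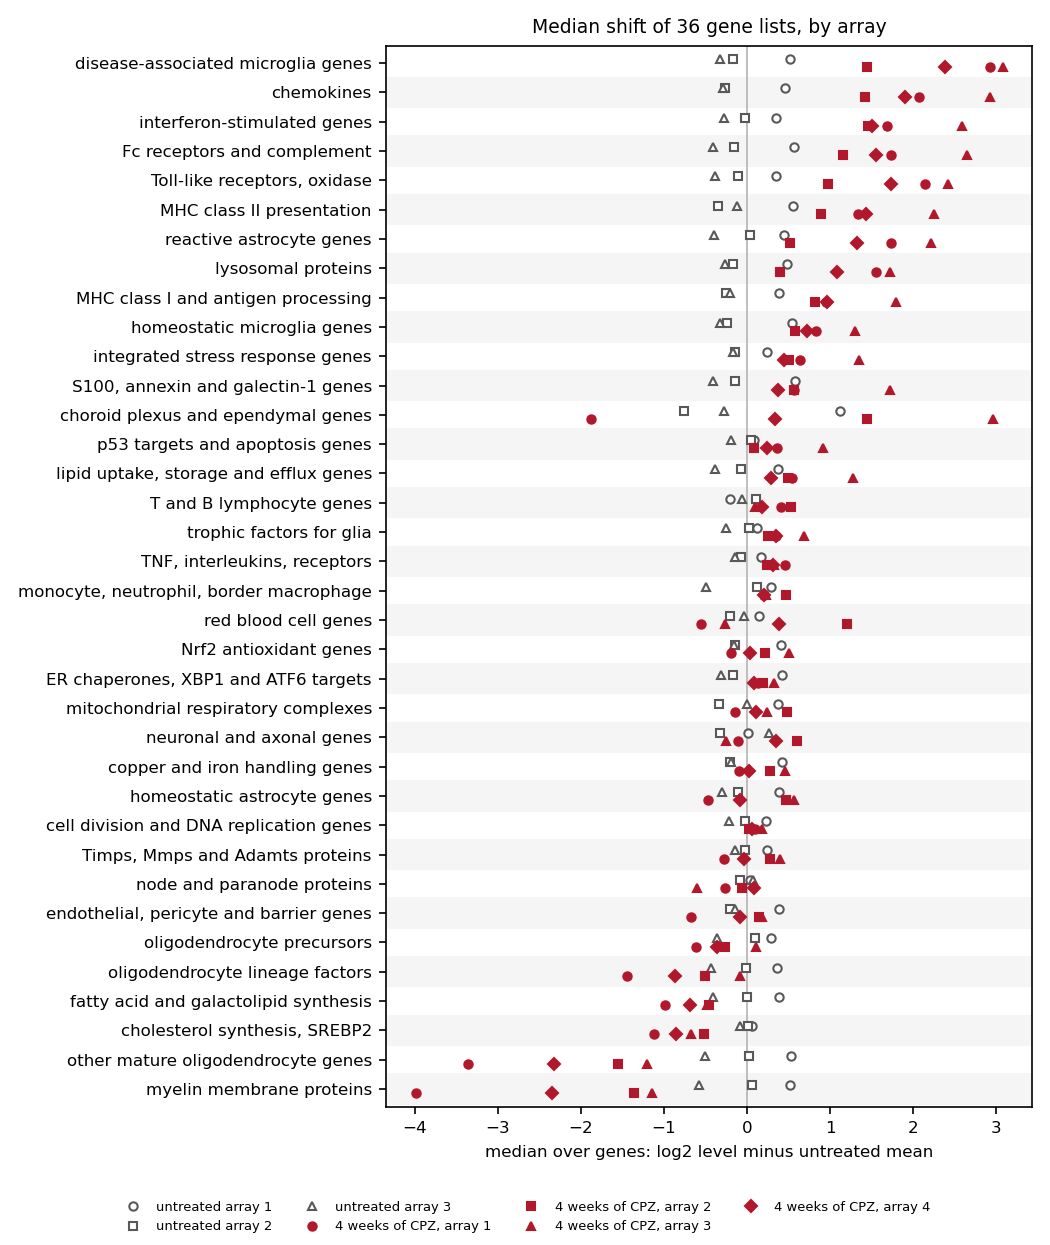
Median shift of 36 gene lists on each of the 7 arrays, where the shift of a gene is its log2 level minus the mean of the 3 untreated arrays and the x axis is the median over the tested genes of the list. Open symbols are untreated arrays and filled symbols CPZ arrays, and lists are ordered by their median log2 fold change. The mature oligodendrocyte and myelin lists lie lowest with CPZ array 1 at -3.99, the disease-associated microglia list lies highest, and the choroid plexus list spans -1.88 to 2.96 on the CPZ arrays.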

How the data were processed

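Total RNA of punched corpus callosum was hybridised to single-colour Agilent 4x44K arrays. The authors deposited scanner files with spot intensity values, extracted per the file headers with Feature Extraction 11.0.1.1, and a table of log2 values of the same arrays, in which the untreated median of each probe is 0. Each deposited scanner file was matched to the table by its values, and the array of a sample was taken from the table column with its title, because 14 of 16 files were recorded under other samples. The processed intensity was set to log2 after division by its 75th percentile on each array. Array number limits the precision. Probes had to be well above background on all arrays of at least 1 of 3 groups, which left 27505 of 41174. limma 3.58.1 in R 4.3.3 fitted untreated, 2 weeks and 4 weeks of CPZ (10 arrays), with Benjamini-Hochberg adjustment over all probes, and statmod 1.5.0, Python 3.11.15, pandas 2.3.3 and matplotlib 3.10.9 were also used. The fit was tested on simulated data with 27449 probes for this comparison, where 64 of 100 changes of log2 size 2 and 83 of 100 of size 3 were called, with 7 false calls in all. Promoters came from RefSeq (GRCm38.p6), and the files gave no coordinates.

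Genes named were the called genes, the members marked as lead in each list whatever their change, and others chosen after their values were seen (among them Mal, Lgals3, Gpnmb, Apoc1, Gdf15, Atf5, Osmr, Tgm1, Il12rb1 and Npc1). Single values of a few members are not reported here, though counts and medians of their lists include them. The comparison and the lists were chosen with earlier results of these data known. Alternatives were single arrays left out, other normalizations, background corrections, filters and blocks, the table of the authors and the methods' test.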

Additional observations from a re-analysis of the deposited data

Results flagged for a closer look

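In 18 of 231 values tested, 1 of the 4 CPZ arrays stood apart from the other 3 by more than the 95% limit of Dixon's test, which chance exceeds in about 1 in 20 groups. CPZ array 3 was the separate array for 10 of them. On it the level was 9.33 for Apoe (8.45 to 8.54 on the others), 2.73 for Trib3 (0.68 to 0.93), 2.16 for Gdf15 (-1.63 to -1.07), 0.30 for Atf3 (-1.96 to -1.71), 0.76 for Mdm2 (-0.27 to -0.18), 1.45 for Cyba (-0.23 to 0.02), -1.83 for Nkg7 (-3.43 to -3.20) and 4.49 for Kcna1 (4.84 to 4.86). The median level of chemokines was 1.42 (0.57 to 0.65) and that of MHC class I and antigen processing 3.28 (1.96 to 2.11). CPZ array 2 was separate for 5 values, at -3.24 for Csf3r (-2.26 to -2.07), -2.57 for Gpnmb (0.05 to 0.45), -0.01 for Hmox1 (0.83 to 0.94), 0.74 for P2ry12 (0.33 to 0.39) and 1.30 for Tmem119 (1.45 to 1.48). CPZ array 4 was separate at -4.02 for Myrf (-3.74 to -3.68) and at -3.88 for the median of lymphocyte genes (-3.35 on all others), and CPZ array 1 at -2.31 for Pecam1 (-2.79 to -2.74).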

How the results depend on the processing

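The number of called genes depended on the fit more than the direction did. Against 41 (21 higher, 20 lower) it was 197 (107, 90) with the 7 arrays alone, 431 (373, 58) with the slide as a fixed block and 370 (253, 117) as a random block. It was 1598 (713, 885) with array weights, which rest mostly on CPZ array 4 (weight 6.32, against 0.28 to 0.47 on the others of its group). It was 18 (10, 8) after quantile normalization, 12 (8, 4) without a filter on dim probes, and 0 by the methods' test, where 1469 genes had an unadjusted p under 0.05. The test in the paper also held the remyelination arrays and found differentially expressed genes at 4 weeks, so this 0 does not repeat its count. Lower calls were 7 with median scaling and 31 with normexp or with probes above background on all 10 arrays. Chosen after seeing the data, the share of probes above background as a covariate gave 214 (73, 141), and leaving out the 3 arrays with the fewest probes above background gave 263 (134, 129). With scanner files as recorded, limma called 0, with 745 genes at an unadjusted p under 0.05. Without single arrays the counts ran from 0 to 165, 0 to 127 higher and 0 to 43 lower. With the replicate number as a block, limma called 0 genes, with 1499 at an unadjusted p under 0.05. Same-numbered samples ran opposite (r = -0.809, -0.748 and -0.762). These correlations follow the main division of the arrays, so whether equal numbers share a batch was not tested. Of the 41 genes, 41 were shared with the random block, with array weights and with the table of the authors, 37 with the fixed slide block, 17 with quantile normalization and 16 with normexp. None of the 35 named called genes changed sign in the fits that tested them, other than with scanner files as recorded. There 11 of the 39 called probes still tested kept their sign. Called transcripts without a gene name were not followed across the other fits. These differences changed sign. With array weights the log2 difference was 0.38 for Cldn5, 0.13 for Cspg4, 0.02 for Glul, -0.06 for Herpud1, 0.10 for Kcnj10, 0.03 for Sdhb, 0.02 for Slc1a2 and -0.05 for Stat2. With median scaling the log2 difference was 0.11 for Ccl27a, 0.09 for Cldn5, 0.06 for Kcnj10, 0.03 for Mcm5, 0.07 for Sdhb, 0.02 for Slc1a2 and 0.07 for Tubb3. With normexp the log2 difference was 0.04 for Ccl27a, -0.07 for Cd163, -0.03 for Cd3e, 0.07 for Cldn5, -0.03 for Il1b, 0.08 for Kcnj10, -0.11 for Pecam1, -0.14 for S100a8, 0.03 for Sdhb and 0.01 for Tubb3. With quantile normalization the log2 difference was -0.03 for Ndufs1. With the covariate the log2 difference was -0.05 for Adamts1, -0.05 for Aqp4, 0.14 for Ccl27a, -0.02 for Folr1, -0.35 for Foxj1, -0.04 for Herpud1, -0.00 for Mmp14, -0.03 for Ndufs1, -0.09 for S100a8 and -0.07 for Tmem119. With the fixed slide block the log2 difference was -0.05 for Cntnap1, 0.00 for Cspg4, -0.31 for Cx3cl1, 0.08 for Kcnj10, 0.04 for Mdm2, -0.04 for Ndufs1, -0.14 for Nefl, 0.17 for Phgdh, 0.04 for Slc2a1, -0.01 for Snap25, -0.06 for Srxn1 and 0.05 for Trf. With the random slide block the log2 difference was -0.01 for Cx3cl1. With those 3 arrays left out the log2 difference was -0.05 for Aqp4, -0.09 for Bax, 0.16 for Cspg4, -0.26 for Folr1, -0.40 for Foxj1 and -0.14 for Herpud1. Without single arrays, it ran from -0.21 to 0.35 for Adamts1, -0.18 to 0.28 for Aqp4, -0.03 to 0.52 for Bax, -0.21 to 0.25 for Ccl27a, -0.54 to 0.51 for Cldn5, -0.06 to 0.30 for Cntnap1, -0.05 to 0.43 for Cox5a, -0.06 to 0.34 for Cx3cl1, -0.23 to 1.34 for Folr1, -0.48 to 0.55 for Foxj1, -0.49 to 0.05 for Glul, -0.06 to 0.54 for Hba-a1, -0.12 to 0.15 for Herpud1, -0.24 to 0.18 for Kcnj10, -0.18 to 0.07 for Mcm5, -0.03 to 0.48 for Mmp14, -1.31 to 0.11 for Mrc1, -0.10 to 0.14 for Ndufs1, -0.31 to 0.03 for Pdgfrb, -0.02 to 0.20 for Pecam1, -0.53 to 0.11 for Phgdh, -0.25 to 0.75 for S100a8, -0.24 to 0.26 for Sdhb, -0.29 to 0.10 for Slc1a2, -0.11 to 0.18 for Stat2, -0.17 to 0.43 for Tmem119, -0.97 to 0.16 for Trf and -0.22 to 0.05 for Tubb3. Medians of several lists near 0 changed sign without single arrays as well. Among them, the median ran from -0.14 to 0.28 for homeostatic astrocyte genes. It ran from -0.06 to 0.49 for genes of blood-derived monocytes, neutrophils and border macrophages. The cause of these changes was not tested. Probes below background on every array of a group give only bounds, and 3 against 4 arrays limit all tests.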
